A study of Mus musculus with 2 samples.

Results

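The cytosolic ribosomal protein genes encode the proteins of the ribosome that translates messenger RNA in the cytoplasm. They were taken by symbol from the protein-coding genes of the GENCODE M21 annotation of the mouse genome build mm10 (GRCm38): Rpl or Rps followed by a number and at most one of the letters a, l, x or y, plus Rplp0, Rplp1, Rplp2 and Rpsa. The rule found 80 of the 21938 protein-coding genes outside the mitochondrial genome, and no measured value entered it. Of these, 46 are Rpl genes of the large subunit, 31 are Rps genes or Rpsa of the small subunit, and 3 encode the stalk of the large subunit. DNase-seq, which maps the bases that DNase I can cut in nuclei and so the open chromatin, had been run on the frontal cortex of mice of the strain B6CASTF1/J, all female and aged 14 days. B6CASTF1/J is the F1 hybrid of a C57BL/6J and a CAST/EiJ parent, and the labels name no other allele, treatment or agent. There was 1 group of 2 libraries, given as biological replicates 1 and 2 which carry separate biosample labels under 1 donor label. A mark in the labels may stand for pooled animals but is not explained, and the tissue is whole cortex, so each value is an average over its cell types.

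Most ribosomal proteins bind ribosomal RNA in the nucleolus, and most are needed in equal numbers. Most of their genes are active in nearly all cells, and neurons depend on their output for growth and for protein synthesis near synapses. The promoters are compact and CpG-rich, and most of the mRNAs begin with a terminal oligopyrimidine (TOP) tract, a run of C and T bases through which growth signals acting on the mTOR kinase control translation. Factors of the ETS family, YY1, SP/KLF and NRF1 are known to bind promoters of this class, and a few members have paralogs used in muscle or testis in their place.

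The sequences at these promoters are shown first because the counts of tracts, motifs and footprints given later refer to them. Each is a stretch of 30 bases of the reference genome within the RefSeq promoter table (GRCm38.p6), which reaches from 250 bases before to 50 after a gene's start. Sequences are 5′ to 3′ on the strand of the gene, and they are those of the C57BL/6J reference, not of the CAST/EiJ allele. In 5 genes the capitals mark the run of C and T bases at the start. The runs were found by sequence alone, and these genes were picked after their values were seen.

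Rps6, chr4:86857353-86857382, minus strand: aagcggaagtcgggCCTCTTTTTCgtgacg

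Rpl28, chr7:4792950-4792979, plus strand: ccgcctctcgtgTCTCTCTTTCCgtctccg

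Rplp2, chr7:141447636-141447665, plus strand: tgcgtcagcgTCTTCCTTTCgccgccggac

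Rpl35a, chr16:33056467-33056496, plus strand: gcggggcttgCCTTCCTCTTTCCgccatct

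Rps10, chr17:27635230-27635259, minus strand: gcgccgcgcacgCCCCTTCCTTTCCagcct

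In the next stretches the capitals mark a motif match that lay, in both libraries, wholly within a footprint extended by 5 bp on each side. A footprint is a short run of bases cut less than its surroundings within open chromatin. The ETS letters CCGGAAG are shown in Rps18, Rpl15, Rps21 and Rps25.

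Rps18, chr17:33955805-33955834, minus strand: gagaaggccgaaCCGGAAGttatagctccg

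Rpl15, chr14:18271126-18271155, minus strand: ttgggagagcatCCGGAAGcggcgggctgt

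Rps21, chr2:180257279-180257308, plus strand: gctttctttgcaCCGGAAGcggaagttaaa

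Rps25, chr9:44407629-44407658, plus strand: ccacccattgccCCGGAAGtactctctcga

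The NRF1 letters CGCATGCG are shown in the 3 members that hold them, and the CREB/ATF letters TGACGTCA in 3 of the 4 members whose match was footprinted.

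Rpl10a, chr17:28328551-28328580, plus strand: ctctatttgagCGCATGCGcaaagcgctct

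Rpl5, chr5:107900539-107900568, plus strand: gctacatactgCGCATGCGtacgtgactcc

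Rpl37a, chr1:72711257-72711286, plus strand: gtctaaaaccgCGCATGCGcattgcgtccc

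Rpl18, chr7:45717981-45718010, plus strand: tcgcgctcatgTGACGTCAcccgtgcacca

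Rps9, chr7:3703973-3704002, plus strand: gcggtgcgtgaTGACGTCActacaaggcga

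Rpl13, chr8:123102315-123102344, plus strand: gcgggttcgcgTGACGTCActtccctttcg

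The TATA letters TATAAA and the palindrome CTCGCGAG complete the set.

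Rplp0, chr5:115559472-115559501, plus strand: gcctggttctccTATAAAaggcacacgcgg

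Rps2, chr17:24720068-24720097, plus strand: ttcttggagcacTATAAAttgtcccttccg

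Rps28, chr17:33824513-33824542, minus strand: gcgtggtcagagccgacTATAAAaggcatc

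Rpl26, chr11:68901530-68901559, plus strand: gctccgagactCTCGCGAGatctcgcggca

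Rps19, chr7:24884555-24884584, plus strand: gtttagccgctCTCGCGAGcactccgaaat

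The libraries held 93641 peaks in replicate 1 and 66196 in replicate 2, and the total number of reads is not given in the sources used here. Peak strength is the signal that the authors normalised for depth, on a scale that is not stated. All peak signals were whole multiples of 1 smallest step per library within 0.05 of a step (0.00670 in replicate 1 and 0.00858 in replicate 2). The strongest promoter peaks of the ribosomal protein genes rested on 262 to 1796 such steps in replicate 1 and 129 to 988 in replicate 2. As a check of the tissue, promoter peaks were present in both libraries at 10 of 13 neuronal marker genes, beside 58.8% of all protein-coding genes. The counts were 1 of 12 glial and vascular markers (Gfap, of astrocytes) and 0 of 8 markers of other tissues. Of the 12, 4 had one in replicate 1 and 2 in replicate 2. The neuronal ones were weak, at median percentiles of promoter strength of 23.9 and 29.3 in replicates 1 and 2. Other peaks in the gene or up to 10 kb from it were present in both libraries at 12, 11 and 7 genes of these lists. The background for that was 64.7% of all protein-coding genes, and such peaks did not set the lists apart. The counts do not measure the share of each cell type. Among the neuronal markers, Gad1 of inhibitory cells and Slc17a7 of excitatory cells had a promoter peak in replicate 1 alone. The single group allows no comparison between conditions, and no test was run.

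Nearly every ribosomal protein gene had open chromatin at its start. A promoter peak, one within 500 bp of any annotated transcription start site (TSS) of the gene, was present in both libraries at 77 of 80 genes (96.2%), against 58.8% of all protein-coding genes. The same 77 genes had one in each library, and in all 77 the strongest peaks of both libraries overlapped, beside a background of 94.3%. All 31 small subunit genes and all 3 stalk genes were among them, as were 43 of 46 large subunit genes. Ribosomal protein genes have a median of 6 annotated TSSs, against 3 for all protein-coding genes, which gives them more places to be counted. With the 5′ end of the gene record as the only TSS the count was 73, against a background of 53.2%, and the 4 genes no longer counted were Rps2, Rps10, Rps14 and Rpl17.

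The 3 genes without a promoter peak are the tissue-restricted paralogs. Rpl3l takes the place of Rpl3 in heart and skeletal muscle, and Rpl10l and Rpl39l are used in the testis in place of Rpl10 and Rpl39. The nearest peak to a TSS of Rpl3l lay 3260 bp away in both libraries. For Rpl39l it lay 22553 bp away in both, and for Rpl10l 126537 bp away in replicate 1 and 186040 bp in replicate 2. The TSS windows of these genes, 2356 bp in Rpl3l, 1001 bp in Rpl10l and 1003 bp in Rpl39l, held 0 bases of the authors' deposited list of cut rates with an FDR below 0.05. Of 7866 protein-coding genes with a promoter peak in neither library, only 2.14% in replicate 1 and 0.839% in replicate 2 held any. The 0 bases thus add little to the missing peaks. Their widespread counterparts all had peaks, with strengths of 7.37 and 4.50 for Rpl3, 2.37 and 1.51 for Rpl10, and 2.15 and 1.58 for Rpl39 in replicates 1 and 2. The gap between paralog and counterpart therefore held in both libraries for all 3 pairs. Rps27l, a p53-responsive paralog of Rps27 whose use is not confined to 1 tissue, had a peak of 2.50 and 2.17, against 3.25 and 3.03 for Rps27.

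Promoter strength ranged widely within the family but lay mostly in the upper part of all promoters. The median over the 77 genes was 4.85 in replicate 1 (middle 50% from 3.43 to 6.56) and 2.99 in replicate 2 (2.39 to 3.77), a mean of 3.92 ± 1.31 (SD, n = 2 libraries). Over all protein-coding genes with a promoter peak the medians were 2.70 and 1.87. Ranked within each library, the median ribosomal protein gene stood at percentile 79.1 and 78.9. In both libraries 65 of the 77 stood above the median of all promoters, against a background of 47.5%, and 7 stood below it in both. Above the upper quartile in both libraries were 37 of the 77, against 20.9% of all genes with a promoter peak. The subunits had similar medians, 4.51 and 3.04 for the large subunit, 4.86 and 2.99 for the small subunit, and 4.92 and 2.88 for the stalk genes.

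**Figure D1:**
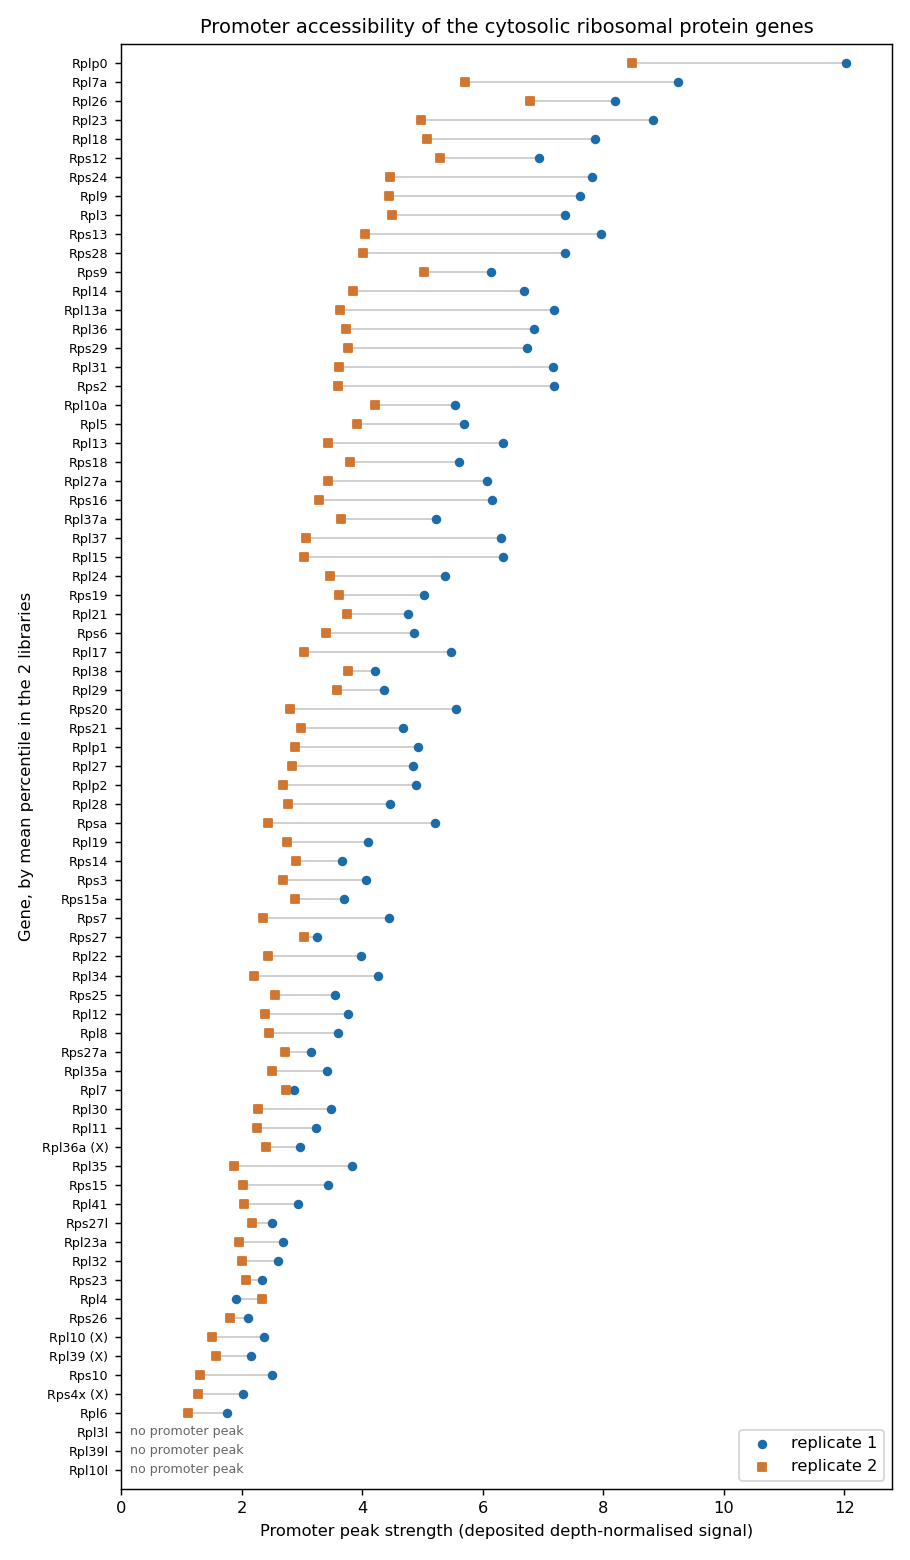
Promoter peak strength (deposited depth-normalised signal, x axis) of 75 of the 80 ribosomal protein genes (y axis, ordered by mean percentile), with replicate 1 as circles and replicate 2 as squares joined by a line. Strength runs from Rpl6 at 1.75 and 1.11 to Rplp0 at 12.03 and 8.47, Rpl4 alone has its square to the right of its circle, and 3 paralogs have no promoter peak.

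Rplp0 had the most open promoter of the family. Its gene product is the base of the ribosomal stalk, the arm that recruits the translation factors that hydrolyse GTP. The peak measured 12.03 in replicate 1 (chr5:115559281-115559520) and 8.47 in replicate 2 (chr5:115559281-115559500), and it stood at percentile 99.9 in both. The other stalk genes, Rplp1 at 4.92 and 2.88 and Rplp2 at 4.90 and 2.69, lay near the median of the family, so the 3 stalk genes did not share a level.

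Next came Rpl7a at 9.24 and 5.70, Rpl26 at 8.20 and 6.78 and Rpl23 at 8.83 and 4.97. Rpl26 and Rpl23 are large subunit proteins that are also known as partners of the p53 pathway. Rpl18 followed at 7.87 and 5.07, Rps12 at 6.93 and 5.29, Rps24 at 7.82 and 4.46 and Rpl9 at 7.62 and 4.45. These 8 genes lie on 6 chromosomes and come from both subunits, and none of them fell below percentile 94.2 in either library.

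The least open promoter with a peak was that of Rpl6, a large subunit protein, at 1.75 and 1.11. Rps4x, the X-linked form of a small subunit protein, measured 2.02 and 1.28, and Rps10, a small subunit protein near the path of the mRNA, 2.50 and 1.31. Rpl39 of the peptide exit tunnel and Rpl10, which is needed for the subunits to join, are given above and belong with them. Rps26, which lies by the mRNA exit channel, measured 2.10 and 1.80, and Rpl4 had 1.90 and 2.34. All 7 of these genes ranked below the median promoter in replicate 1, and 6 of them also in replicate 2. The exception was Rpl4, at percentile 62.8 there.

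Among those 7 genes, 3 are on the X chromosome. The family has 4 X-linked genes, Rpl10, Rpl36a, Rpl39 and Rps4x, and their median was 2.26 and 1.54, against 4.90 and 3.04 for the 73 autosomal genes with a peak. Rpl36a was the strongest of the 4 in both libraries, at 2.97 and 2.40. None of the 4 was above the upper quartile of all promoters in both libraries. X-linked promoters as a whole were also weaker, with medians of 1.35 and 0.98 over all X-linked protein-coding genes with a peak and 2.77 and 1.91 over autosomal ones. The ratio of the ribosomal protein genes to all coding genes was 1.67 and 1.57 on the X chromosome and 1.77 and 1.59 on the autosomes, so the step down on the X was of similar size in the family and in all genes.

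The order of the promoters was alike in the libraries, while the values themselves were lower in replicate 2. Over the 77 genes Spearman's rho was 0.890 and Pearson's r of log2 strength 0.885, and rho was 0.946 over all protein-coding genes with a peak in both. These describe genes measured in the same pair of libraries, which are not independent points. The log2 ratio of replicate 1 over replicate 2 had a median of 0.65 (SD over genes 0.29), against 0.63 over all genes. The ratio was above 0 in 76 of 77 genes, close to the background of 95.5% over all genes. On ranks, 41 genes stood higher in replicate 1 and 36 in replicate 2.

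**Figure D2:**
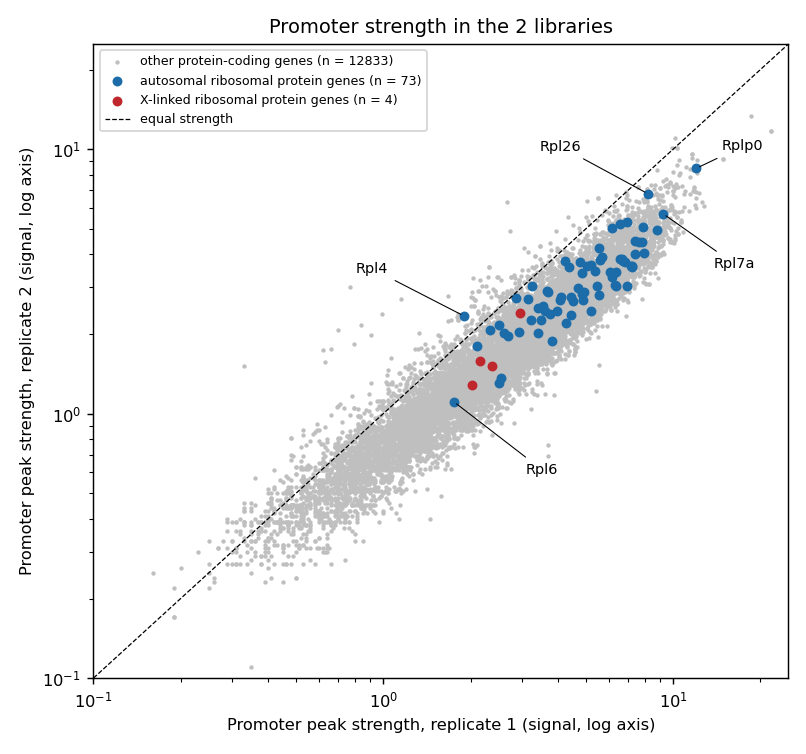
Promoter strength in replicate 1 (x axis) and replicate 2 (y axis), both as signal on log axes, for autosomal (blue) and X-linked (red) ribosomal protein genes over all other protein-coding genes with a promoter peak in both libraries (grey). All ribosomal protein genes but Rpl4 lie under the dashed line of equal strength, as do 95.5% of all genes.

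Among the genes at the high end of that ratio were Rpsa, at 5.21 and 2.44 (log2 ratio 1.10), Rpl15, at 6.34 and 3.04 (1.06), and Rpl37, at 6.30 and 3.07 (1.04). Rpsa is the small subunit protein also known as the laminin receptor. At the low end were Rpl4 (log2 ratio -0.30), Rpl7 at 2.87 and 2.74 (0.07), Rps27 at 3.25 and 3.03 (0.10) and Rpl38 at 4.22 and 3.77 (0.16). With 1 value per library, none of these single ratios has an error of its own.

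The strongest peak was centred on or just before the start. Its midpoint lay a median of 24 bp upstream of the nearest TSS in replicate 1 and 20 bp in replicate 2, with 89.6% (69 genes) and 85.7% (66 genes) within 100 bp of it. Over all protein-coding genes with a peak these shares were 67.6% and 64.8%. They were 88.5% and 84.6% over mitochondrial ribosomal protein genes and 94.6% and 81.1% over proteasome genes, so such closeness was not particular to the family. The distance is to the nearest annotated TSS, and ribosomal protein genes have a median of 6, against 3 over all genes. Peaks were short, with median widths of 240 and 260 bp, the same as over all genes. A single promoter peak was found at 42 of 77 genes in replicate 1, against 45.3% of all genes with one or more, and at 48 of 77 in replicate 2, against 49.4%.

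In 14 of the 77 genes the strongest peak also lay within 500 bp of the start of another protein-coding gene, in both libraries, beside a background of 18.6%. Such a peak cannot be assigned to 1 gene. The pairs include Rpl7a with Med22, a Mediator subunit, Rpl18 with Sphk2, a sphingosine kinase, Rpl9 with Lias, lipoic acid synthase, and Rps28 with Ndufa7, a subunit of respiratory complex I. Rpl4 shares its peak with Zwilch, a kinetochore protein, and there the midpoint was at -464 bp from the nearest Rpl4 start in replicate 1 and -444 bp in replicate 2, with upstream positions negative. That makes Rpl4, the gene with the odd ratio above, also the one whose strongest peak lay farthest from its start. Rps10 shares its start with the readthrough gene RPS10-NUDT3.

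Other genes of the ribosome and its assembly gave a scale for these levels. The 7 further genes of the cytosolic ribosome that the symbol rule does not reach all had a promoter peak in both libraries, with median percentiles of 94.5 and 90.6. They include Rps3a1 at 6.99 and 4.87, Rpl36al at 8.21 and 4.08, Rpl22l1 at 7.47 and 4.29, and Fau, which encodes a small subunit protein fused to a ubiquitin-like one, at 7.85 and 3.82. The 20 translation genes whose mRNAs also carry a TOP tract stood at 85.5 and 83.0, led by the nucleolar chaperone Npm1 at 8.09 and 4.27, the elongation factor gene Eef1g at 7.28 and 4.44 and Eef2 at 7.45 and 4.29. The 26 ribosome biogenesis genes stood at 70.0 and 68.9, with Nop56 at 8.42 and 6.07, Nolc1 at 8.23 and 4.81 and Rrp9 at 8.23 and 3.97 the strongest. These lists and the ribosomal protein genes overlapped broadly in range, as the points in the plot of percentiles by group show.

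Mitochondrial ribosomal proteins, which serve the separate ribosome of that organelle, formed the nearest contrast. In both libraries all 78 of their genes had a promoter peak, and their median strength was 3.28 and 2.31, at percentiles 58.9 and 62.0. Of the 39 proteasome genes 37 had one, with medians of 3.94 and 2.45 at percentiles 68.6 and 66.0. The medians of the cytosolic ribosomal protein genes were higher than both in each library. The 18 genes known to regulate ribosomal protein genes or to sense their imbalance all had a promoter peak and stood at 53.0 and 48.4. By mean percentile their strongest were the transcription factor gene Sp1 at 8.11 and 4.38, Rptor of the mTOR complex at 6.34 and 4.56, and Mdm2, the p53 ligase that free ribosomal proteins bind, at 4.88 and 3.53. Larp1, whose protein binds TOP mRNAs, was the weakest of them at 1.59 and 0.87.

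**Figure D3:**
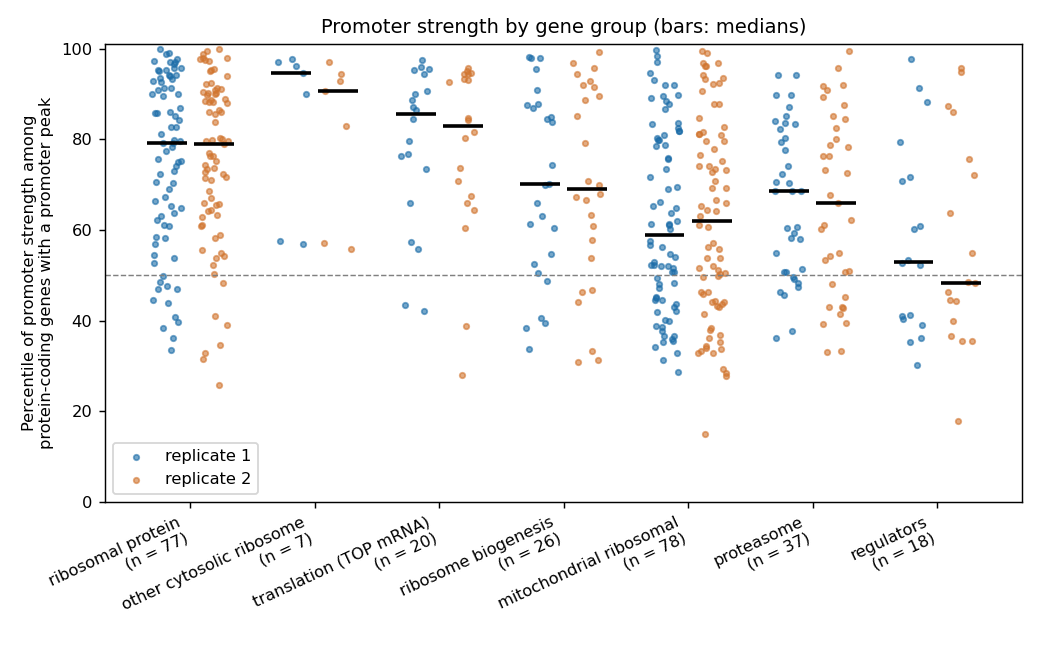
Percentile of promoter strength within each library (y axis, among protein-coding genes with a promoter peak) for 7 gene groups (x axis), with 1 point per gene, black bars at the medians and a dashed line at 50. The ribosomal protein genes have medians of 79.1 and 78.9, above the mitochondrial ribosomal protein genes at 58.9 and 62.0, and the groups overlap.

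Footprints were found at nearly all of these promoters, as at most open promoters. A footprint lay inside the strongest promoter peak in both libraries in 76 of 77 genes, beside a background of 94.4%, and the exception was Rpsa, with 5 in replicate 1 and 0 in replicate 2. The median gene had 5 in each library, against 4 over all genes. Per 100 bp of peak the median was 2.00 and 1.79, against 1.67 and 1.50. As a comparison at like strength, 2790 other genes whose strength lay in the middle 50% of the family in both libraries had 1.94 and 1.88, so the family did not stand above genes of like strength in both libraries.

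Rps19, a small subunit protein whose gene is mutated in Diamond-Blackfan anaemia, had 15 footprints in replicate 1 and 7 in replicate 2. Its peak was 720 bp wide in replicate 1 and 440 bp in replicate 2, so the wider peak held more. Rpl15 had 9 and 10, Rpl22 5 and 10, and Rpl13a and Rps18 both 7 and 8, as did Rpl39. In all, the strongest promoter peaks held 395 footprints in replicate 1 and 359 in replicate 2, of median width 12 and 11 bp. Of the 395, 270 (68.4%) overlapped a footprint of replicate 2, against 57.8% over all genes and 72.9% over the genes of like strength. About 3 in 10 footprints at these promoters were thus seen in replicate 1 without an overlapping call in replicate 2.

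Footprints lay both before and after the start of these genes, more often than over all genes in most bins near it. A RefSeq promoter window was found for 60 of the 80 genes, and 57 of these had a promoter peak in both libraries. In them the bases from -90 to -81 bp, upstream of the start, lay in a footprint at 38.8% of promoters in replicate 1 and 34.2% in replicate 2, against 21.6% and 17.9% over 10112 protein-coding genes with a window and a peak in both. From 10 to 19 bp after the start the shares were 41.9% and 34.3%, against 19.9% and 16.1%. The bin from 30 bp after the start was at 17.5% and 14.9%, near the 15.8% and 12.7% of all genes. From 80 bp the shares were again higher, at 23.4% and 15.9%, against 11.1% and 7.28%. The bin from -40 bp differed between the libraries, at 25.3% in replicate 1, the same as over all genes, and 32.7% in replicate 2, against 20.9%. These comparisons are with promoters of all strengths, and most ribosomal protein genes have stronger ones. No profile of genes of like strength was made, so the differences cannot be called particular to the family. All positions count from the RefSeq start, and whether transcription in these cells began there was not tested.

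**Figure D4:**
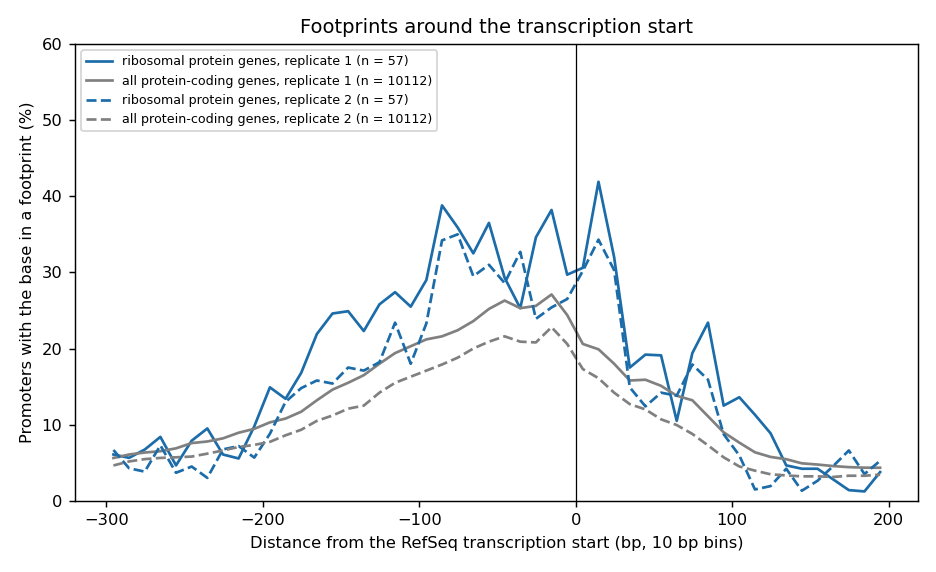
Share of promoters whose bases lie in a footprint (y axis, percent) in bins of 10 bp along the distance from the RefSeq start (x axis), for 57 ribosomal protein genes (blue) and 10112 protein-coding genes (grey) in replicate 1 (solid) and replicate 2 (dashed). The blue lines peak upstream of the start and again just after it, at 41.9% and 34.3% in the bin from 10 bp. The grey lines cover promoters of all strengths.

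Among the 20 genes without a RefSeq window are Rpl3, Rpl7, Rpl8, Rpl17, Rpl21, Rpl23a, Rpl29, Rpl30, Rpl32, Rpl36, Rplp1, Rps14, Rps20, Rps27a and Rps29. Over the 60 with one, the median GC content was 56.8%, against 57.0% over 16521 protein-coding genes with a window and 61.0% over those with a promoter peak in both libraries. CpG dinucleotides were kept: the observed number was 0.863 of that expected from base content, against 0.584 over all windows and 0.757 over those with a peak. The windows were thus less GC-rich than open promoters in general while holding relatively more CpG.

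A pyrimidine tract of at least 5 bases that began within 5 bp of the RefSeq start was present in 25 of 60 genes (41.7%), against 25.2% of all genes with a window. Tracts of at least 7 bases were present in 18 of 60, against 8.82%, and the 5 stretches printed first are from these. The count depended on how far from the annotated start the tract could begin. It was 0 when the tract had to begin at the start itself, against 1.08% of all genes. With a tolerance of 10 bp it was 39, against 42.3%. A tract was the whole run of C and T bases, so a run across the start did not count at a tolerance of 0. The letters CTTTCC, common in such tracts, were searched on the sense strand over the whole window after the data had been seen. They occurred in 25 of 60 genes (41.7%), against 16.0%.

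Motifs of transcription factors were searched on both strands of the same windows. Exact letters were required, with N for any base. The ETS letters CCGGAAG occurred in 25 of 60 genes (41.7%), against 13.4% of all genes with a window. The YY1 letters AANATGGC occurred in 11 (18.3%), against 7.59%, the CREB/ATF letters TGACGTCA in 5 (8.33%), against 2.64%, and the NRF1 letters CGCATGCG in 3 of 60, against 2.89%. The palindrome CTCGCGAG occurred in 7 (11.7%), against 1.45%: Rpl10a, Rpl12, Rpl26, Rpl27a, Rps6, Rps19 and Rps28.

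Other letters were near or under the background. The SP/KLF letters GGGCGG occurred in 36 of 60 genes, against 51.0%, the E-box CACGTG in 6 of 60, against 9.18%, and the ZNF143 letters ACTACAA in 4 (6.67%), against 4.28%. The NFY letters CCAAT occurred in 19 (31.7%), against 42.1%, and TATAAA in 6 of 60, against 14.3%. All these motif backgrounds include windows of genes without a promoter peak. The 10112 genes with a window and a peak in both libraries held 967 TATAAA matches in all. Beside those genes the share with TATAAA in the family was therefore not lower. For the other motifs the share of such genes was not computed. A match describes letters and is not a site of binding, and the absence of a match says only that the exact letters are not in the window.

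**Figure D5:**
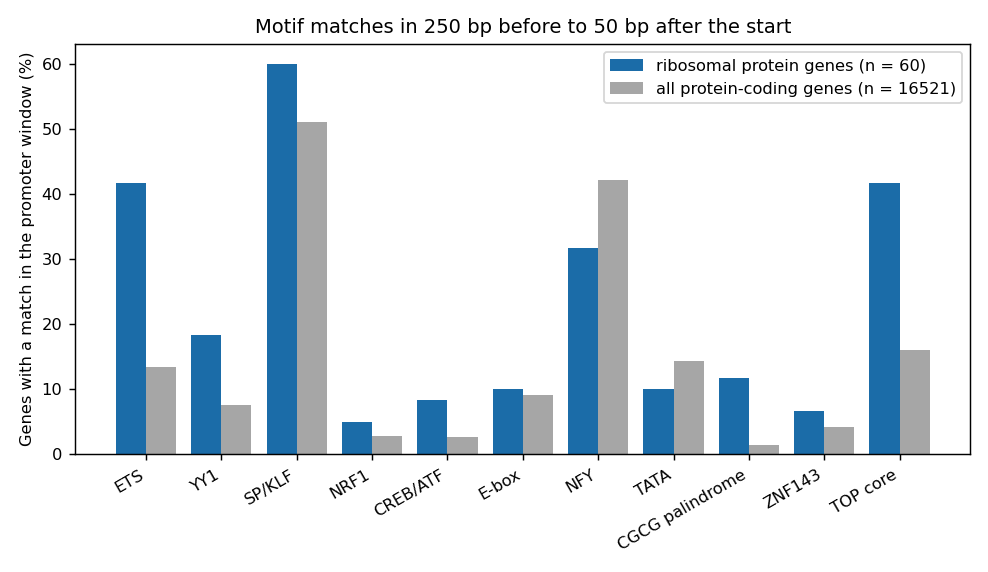
Share of genes (y axis, percent) with at least 1 match of each motif (x axis) in the window from 250 bases before to 50 after the RefSeq start, for 60 ribosomal protein genes (blue) and 16521 protein-coding genes (grey). ETS, CTTTCC (TOP core) and the CGCG palindrome have blue bars well above grey ones, and NFY and TATA have lower blue bars. The grey bars include genes without a promoter peak.

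Some of these matches coincided with footprints in both libraries, in genes with a promoter peak in both. The shares over all genes given below cover promoters of all strengths, and most ribosomal protein genes have stronger ones. No such share was computed over genes of like strength. Overlap in part was not counted: the whole match had to lie within a footprint extended by 5 bp on each side. The NRF1 letters did so in 3 of 3 matches (69.3% over all such genes), in Rpl10a, whose level was 5.54 and 4.22, in Rpl5 at 5.69 and 3.91, and in Rpl37a at 5.22 and 3.65. Rpl5 is a large subunit protein that binds Mdm2 when ribosome assembly fails. The CREB/ATF letters did so in 4 of 5 matches (67.8% over all), in Rpl18, Rps9, Rpl13 and Rpl27a but not in Rpl26. The SP/KLF letters gave 25 of 52 (48.1%), against 36.1%. Matches to ETS letters did so in 7 of 28, against 22.8% over all genes. Most of the ETS letters at these promoters thus did not lie wholly within an extended footprint in both libraries. YY1 letters gave 5 of 12 (41.7%), against 22.0%. NFY letters gave 4 of 25 (16.0%), against 17.1%, and CTTTCC 4 of 28 (14.3%), against 8.50%. The E-box gave 2 of 6 (33.3%), against 23.7%, and the ZNF143 letters 1 of 3, against 4.90%.

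The TATAAA matches were few, and 3 of 7 lay within an extended footprint in both libraries, against 6.62% over all genes. These were in Rplp0, Rps2 and Rps28, whose promoters measured 12.03 and 8.47, 7.19 and 3.60, and 7.37 and 4.01. In Rplp0 and Rps2 the match began 18 bases after the RefSeq start, and in Rps28 38 bases after it, although a TATA box is known to act upstream of the start. The RefSeq start need not be the one used in these cells, and that was not tested. The palindrome CTCGCGAG lay within an extended footprint in both libraries in 3 of 8 matches (34.0% over all), once in Rpl26 and at a pair of places in Rps19. With so few matches these shares are descriptions only.

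Away from the promoter the median number of open sites per gene was at or under that of all genes. Linked peaks, those with a midpoint in the gene or up to 10 kb from it and outside every TSS window of the gene, numbered a median of 1 in each library, against 2 and 1 over all protein-coding genes. At least 1 was present in both libraries in 58 of 80 genes (72.5%), beside a background of 64.7%, and 13 had none in either. The genes are short, with a median length of 3328 bp against 17425 bp, so less sequence was searched. Rps14 with 9 and 5 and Rpl23a with 8 and 6 had the most, the former in replicate 1 and the latter in replicate 2. Rps10 had 6 and 4, and Rps15 had 7 and 3. Rpl3l had 4 and 5 linked peaks although its start carried none. Position alone links these peaks to a gene.

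Processed pseudogenes, copies of spliced mRNAs that were inserted elsewhere without a promoter, are numerous for this family. Of 296 processed pseudogenes named after a ribosomal protein gene, 3 (1.01%) had a peak in both libraries within 500 bp of their annotated start, against 1.51% of 9940 other processed pseudogenes. Of these 3, 2 were not at the promoter of a protein-coding gene, Rpl31-ps20 and Rps19-ps10. How reads that match a gene and its copies alike were treated is not given in the sources used here, so peaks at such copies are uncertain.

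Many ribosomal protein genes carry small nucleolar RNAs (snoRNAs), guides for the modification of ribosomal RNA, within their introns. In GENCODE M21, 29 of the 80 genes (36.2%) held at least 1, with 56 snoRNAs in all, against 1.18% of protein-coding genes and 0 of the 78 mitochondrial ribosomal protein genes. Rpl4 held 5, and Rpl13a held 4. In both libraries all 29 host genes had a promoter peak, as did every other ribosomal protein gene but the 3 tissue-restricted paralogs. Over all protein-coding genes 224 of 259 hosts had one, beside 58.8% of all genes. The median strength of the 29 hosts was 5.47 in replicate 1 and 3.04 in replicate 2. For the 48 other ribosomal protein genes with a peak it was 4.45 and 2.95. Over all protein-coding genes the medians were 3.62 and 2.39 for hosts and 2.69 and 1.86 for the rest. Hosts were also found among the weakest promoters of the family, with Rpl6 and Rpl10 as examples.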

How the data were processed

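Per the deposited notes, the authors called peaks, footprints and FDR cut rates from each library's own alignments to mm10, without pooling. The sources used here do not give the aligner, caller, versions or thresholds. Peak strength is the deposited signal, normalised for depth by the authors. The deposited FDR (p-value scale) covers stretches of bases below 0.05. The footprint files hold 1 constant, so positions were used. The longer peak list of each library was used, with the shorter as an alternative.

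Genes came from GENCODE M21 and promoter windows from RefSeq (GRCm38.p6), whose letters equalled those of the genome. Overlaps were computed with numpy 2.4.6, pandas 2.3.3 and pysam 0.24.0, tested on simulated data. A gene's promoter strength is its highest promoter peak, and percentiles are among genes with one in that library. Named genes were the 8 strongest and 8 weakest by mean percentile, the 4 highest and 4 lowest ratios, the 5 with most linked peaks (4 printed because the next were tied), the 5 with most footprints (6 with ties), all without a peak, tissue paralogs, stalk genes and Rpsa, and up to 3 of other lists. Genes named as sequences, neighbours, counterparts, motif holders, pseudogenes and snoRNA hosts were chosen after their values were seen. Values of a few genes that these rules name are not reported here. Members and lists were chosen with earlier results of these data known. Alternatives covered the peak list, TSS window and set, flank, footprint region, tract, motif window and strand, and each replicate left out.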

Additional observations from a re-analysis of the deposited data

How the results depend on the processing

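Of 54 alternative settings, 41 left the value within a limit, 13 moved it and 0 reversed it. The limit was 1 SD between the libraries, 1 SD over genes for the log2 ratio, and 1.5 times the main count for counts. Some of the 41 were fixed in advance. A median in 1 library always lies within 1 SD of the mean of both, so leaving out a replicate could not move it. The counts of 77 genes with a promoter peak and of 76 with a footprint could not fall with a replicate left out, and could rise to 80 at most. The same holds for the 77 with the wider TSS window. Both counts kept within the limit under every alternative run. With a flank of 0 kb the median number of linked peaks was 0, and with 50 kb it was 7.50. With the 5′ end of the gene record as the only TSS the midpoint lay at -1 bp. A tract tolerance of 0 bp gave 0 genes and 10 bp gave 39. On ranks the difference between replicates 1 and 2 was 0.37 percentile points in place of the log2 ratio. These units differ, so that alternative was counted among the 13 without being held to the limit. Among 21 motif alternatives 7 moved the count: on the sense strand only ETS letters were in 16 genes (from 25), YY1 in 5 (from 11), SP/KLF in 19 (from 36) and NFY in 10 (from 19), and from 500 before to 100 after the start the E-box was in 11 (from 6), TATA in 11 (from 6) and ZNF143 in 8 (from 4). Depth is known only as steps of the signal, so no counting interval was given, and 2 libraries limit every error.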
